A study of Mus musculus with 6 samples.

Results

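Tshz1, Tshz2 and Tshz3, the mouse genes of the Teashirt zinc finger family, were followed in CpG methylation data from the dentate gyrus, the entry region of the hippocampus. A CpG site was assigned to a member when it lay between 1 kb upstream of the gene start and the gene end in GENCODE M21 (mm10). This rule gave 417 of the 890041 sites in the data, with 126 in Tshz1, 186 in Tshz2 and 105 in Tshz3. The rule that assigns a site uses its position and no methylation value.

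Teashirt proteins are transcription factors that carry widely spaced zinc fingers and, in vertebrates, a homeodomain. They act mostly as repressors together with co-repressors such as the C-terminal binding proteins, and they take part in the development of neurons, muscle and the body plan. Methylation of CpGs near a transcription start usually goes with silence of that start, whereas the bodies of genes are commonly methylated whether or not the gene is used. These data hold methylation only, so nothing is said here about the RNA of the 3 genes.

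Reduced representation bisulfite sequencing (RRBS) reads methylation at sites near CCGG, the sequence cut by its restriction enzyme, and bisulfite treatment separates methylated from unmethylated cytosines. All 6 animals were female C57BL/6JRj mice aged 4.5 months with no transgene or mutation named in the labels. Standard cages housed 3 of them (STD) and an enriched environment the other 3 (ENR), and each library came from 1 mouse. Housing began at 6 weeks of age, and ENR mice lived as a group in a large enclosure with tunnels and toys, so enrichment and the shared enclosure cannot be told apart. The question was whether ENR housing changed methylation. Values are the percentage of reads that were methylated at a site. The read number behind each percentage is unknown here beyond the minimum set by the authors, so no counting interval is given and a value of 0% or 100% may rest on few reads.

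The library of ENR replicate 3 stood low across the whole data set. At 129574 sites with an overall mean of 20% to 80% outside the Teashirt genes, it averaged 37.6%, and STD replicate 3 averaged 43.6%. The other 4 libraries averaged 50.9% to 52.3% at these sites. Many of the differences below are therefore also given without ENR replicate 3, which leaves the low STD replicate 3 in the comparison, and the main ones also without replicate 3 in both groups. The part of these libraries in the differences was not tested.

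The RRBS sites fell into 68 blocks, a block being a run of covered sites of 1 gene with gaps of at most 200 bp. All 68 blocks had a CCGG inside or within 75 bp. Tshz1 had 12 blocks over a gene of 76.1 kb, and Tshz3 had 13 over 75.4 kb (chromosome 7, 36698118 to 36773553, plus strand). Tshz2 had 43 blocks over 438.8 kb (chromosome 2, 169633013 to 170071816, plus strand). Its coverage was thus sparser, with 4.23 sites per 10 kb, against 16.3 in Tshz1 and 13.7 in Tshz3. Sites of a block share reads and are not replicates of each other.

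The sequences on which the results turn are given here from the GRCm38 (mm10) reference, plus strand, from 10 bases before the first to 10 bases after the last covered site. Capitals mark CpGs with a value in the data. The first pair is the intronic Tshz2 block that the study chose for targeted bisulfite sequencing, shown as the stretches before and after a gap in coverage.
Tshz2 amplified block, upstream stretch (chr2:169826175-169826325): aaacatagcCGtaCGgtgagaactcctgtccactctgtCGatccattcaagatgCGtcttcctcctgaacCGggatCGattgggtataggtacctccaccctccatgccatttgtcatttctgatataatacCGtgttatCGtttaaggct
Tshz2 amplified block, downstream stretch (chr2:169826375-169826528): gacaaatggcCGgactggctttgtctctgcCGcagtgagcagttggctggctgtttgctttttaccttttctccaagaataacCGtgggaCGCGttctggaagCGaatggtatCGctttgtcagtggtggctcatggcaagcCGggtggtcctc

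The next 3 are intronic Tshz2 blocks of at least 3 sites. The first pair had the largest differences towards lower methylation in ENR, and the third had no overlap between the groups.
Tshz2 block at 247 kb (chr2:169880293-169880487): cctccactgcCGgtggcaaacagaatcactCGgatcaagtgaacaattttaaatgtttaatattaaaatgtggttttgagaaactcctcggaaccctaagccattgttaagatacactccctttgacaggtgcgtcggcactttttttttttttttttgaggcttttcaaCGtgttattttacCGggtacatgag
Tshz2 block at 111 kb (chr2:169743706-169743787): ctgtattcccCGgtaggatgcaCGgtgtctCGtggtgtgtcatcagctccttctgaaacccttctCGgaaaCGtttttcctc
Tshz2 block at 77.2 kb (chr2:169710172-169710246): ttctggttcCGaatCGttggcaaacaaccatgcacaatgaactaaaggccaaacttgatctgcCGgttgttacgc

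The last 4 show the extremes of level. A Tshz2 block in a coding exon just inside an internal start and the most methylated intronic block of Tshz2 are followed by the least and the most methylated blocks of Tshz3, at its promoter and in a coding exon.
Tshz2 internal start block (chr2:169886130-169886356): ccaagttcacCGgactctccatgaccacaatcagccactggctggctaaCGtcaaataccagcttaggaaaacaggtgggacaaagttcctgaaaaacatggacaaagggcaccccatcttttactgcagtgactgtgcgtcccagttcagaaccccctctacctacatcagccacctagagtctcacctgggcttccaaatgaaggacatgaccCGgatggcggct
Tshz2 highest block (chr2:170026505-170026631): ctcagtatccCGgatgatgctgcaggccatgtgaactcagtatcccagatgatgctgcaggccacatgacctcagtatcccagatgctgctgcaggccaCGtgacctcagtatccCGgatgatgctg
Tshz3 promoter block (chr7:36697869-36698106): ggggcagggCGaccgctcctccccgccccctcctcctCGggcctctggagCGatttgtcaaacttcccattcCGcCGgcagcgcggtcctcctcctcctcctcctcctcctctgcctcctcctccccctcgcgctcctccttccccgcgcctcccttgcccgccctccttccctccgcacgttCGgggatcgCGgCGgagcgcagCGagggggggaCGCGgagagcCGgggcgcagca
Tshz3 coding exon block (chr7:36769863-36769955): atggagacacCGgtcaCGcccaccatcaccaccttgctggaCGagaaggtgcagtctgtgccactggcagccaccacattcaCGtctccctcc

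Tshz2 was far more methylated over its covered sites than its 2 relatives. Tshz2 averaged 58.9%, 55.8% and 54.5% in the STD mice and 56.4%, 55.7% and 45.6% in the ENR mice, in the order of replicates 1 to 3. Tshz3 averaged 18.4%, 18.2% and 17.2% in STD and 18.4%, 17.7% and 14.5% in ENR. Tshz1 averaged 16.4%, 15.9% and 12.8% in STD and 14.1%, 17.6% and 14% in ENR. The lowest Tshz2 library thus lay above the highest library of either relative, whereas the ranges of Tshz1 and Tshz3 overlapped.

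Within each library, Tshz2 exceeded Tshz1 by 39.3 percentage points on average (range 31.6 to 42.6, n = 6). Tshz3 exceeded Tshz1 by 2.26 points (range 0.158 to 4.36), also in 6 of 6 libraries. Tshz3 minus Tshz2 was -37.1 points, with the same order in 6 of 6 libraries. Each of the 3 paired differences had p = 0.031 in a two-sided exact sign-flip permutation test, the smallest that 6 libraries allow, and 0.031 after Benjamini-Hochberg adjustment over the 3 pairs. Among 6845 genes with at least 50 covered sites, Tshz2 lay at the 98.9th percentile of mean methylation, Tshz3 at the 78.8th and Tshz1 at the 74.4th. Among all 22955 genes with at least 3 covered sites the percentiles were lower, at 82.4 for Tshz2, 59.2 for Tshz3 and 56.1 for Tshz1.

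The kind of sequence that was covered differed between the genes. Island-like here means that, over 201 bp centred on the site, G and C made up 50% or more and CpGs were found at 0.6 or more of the number their base content predicts. Of the Tshz1 sites, 77.8% were island-like, and these averaged 2.38% methylation, against 59.8% at its other sites. Of the Tshz3 sites, 56.2% were island-like, with averages of 4.21% and 34.3%. Only 11.3% of the Tshz2 sites were island-like, and these averaged 39.6%, against 56.4% at the rest.

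Over all sites of the data set, island-like sites made up 56.2% and averaged 7.29%, and the others averaged 44.1%. The 21 island-like sites of Tshz2 were thus more methylated than this average, and most of them lay in introns, away from its starts. Of the 21, 11 lay in 1 intronic block of 334 bp, the one that the study amplified. Sites under 10% on average made up 80.2% of the sites in Tshz1, 63.8% in Tshz3 and 14.5% in Tshz2. At 53 Tshz1 sites, 35 Tshz3 sites and 5 Tshz2 sites all 6 libraries read 0%.

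The main starts of all 3 genes were almost unmethylated. Around the Tshz3 starts, 66 sites within 1 kb averaged 1.88%, 0.534% and 2.05% in STD and 1.06%, 1.58% and 1.88% in ENR. Its promoter block printed above was the least methylated Tshz3 block, at 0.974% over the 6 libraries. Tshz1 lies on the minus strand of chromosome 18, from 84011627 to 84087706. Its starts averaged 1.24% to 1.74%, and the most upstream Tshz1 block, with 54 sites, also spans the start of the neighbouring gene Zadh2, so these sites belong to both promoters. The 10 sites at the first 2 starts of Tshz2 averaged 4.59%, 0.208% and 4.17% in STD and 0%, 2.61% and 0.833% in ENR.

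The internal start of Tshz2 showed the opposite state. Transcript Tshz2-204 starts at position 169885835, within the coding part of the gene, and its 3 covered sites, in the block printed above, averaged 93.6%, 100% and 100% in STD and 100%, 100% and 92.2% in ENR. All 6 libraries were above 90% there, and none was above 5% at the first starts. A further internal start, at position 169884893, had 0 covered sites. The Tshz2 promoter average of 24.9% in STD and 23.4% in ENR therefore mixes 10 nearly unmethylated and 3 nearly fully methylated sites.

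Away from the starts the genes were methylated to differing degrees. Exonic sites of Tshz1, outside 1 kb of a start, averaged 95.9% ± 2.19 (SD over 3 mice) in STD and 93.0% ± 3.41 in ENR over 8 sites. Exonic sites of Tshz3 averaged 66.0% ± 1.99 in STD and 64% ± 7.06 in ENR over 11 sites. Those 11 sites fell into a block of 4 sites at 95.5%, printed above, and a block of 7 sites at 47.6% less than 2 kb further on.

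Introns of Tshz1 and Tshz2 averaged above 50%, those of Tshz3 below. The 172 intronic sites of Tshz2 averaged 58.7% ± 2.44 in STD and 54.7% ± 6.53 in ENR. The 28 of Tshz3 averaged 37.8% ± 3.01 and 34.5% ± 6.01, and the 16 of Tshz1 averaged 61.4% ± 14 and 63.8% ± 11.7. The intronic difference was -3.98 points in Tshz2 and -3.33 in Tshz3, and -0.217 and 0.023 without ENR replicate 3. Without replicate 3 in both groups these were -1.23 and -1.65. Tshz1 introns differed by 2.46 points, by 5.92 without ENR replicate 3 and by -2.12 without replicate 3 in both groups. The exonic difference was -2.88 points in Tshz1 and -1.96 in Tshz3, and -1.17 and 2.10 without ENR replicate 3. Without replicate 3 in both groups these were -2.42 and 1.16. Tshz2 had only 1 exonic site, which read 76.7%, 100% and 60.9% in STD and 64.3%, 42.9% and 76.5% in ENR. Its difference was -18.0 points, -25.6 without ENR replicate 3 and -34.8 without replicate 3 in both groups. In every part of every gene the STD and ENR libraries overlapped. Over the 9 parts, exact permutation p-values ran from 0.2 to 0.9, all 0.9 after Benjamini-Hochberg adjustment (two-sided, smallest possible p = 0.1).

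**Figure D1:**
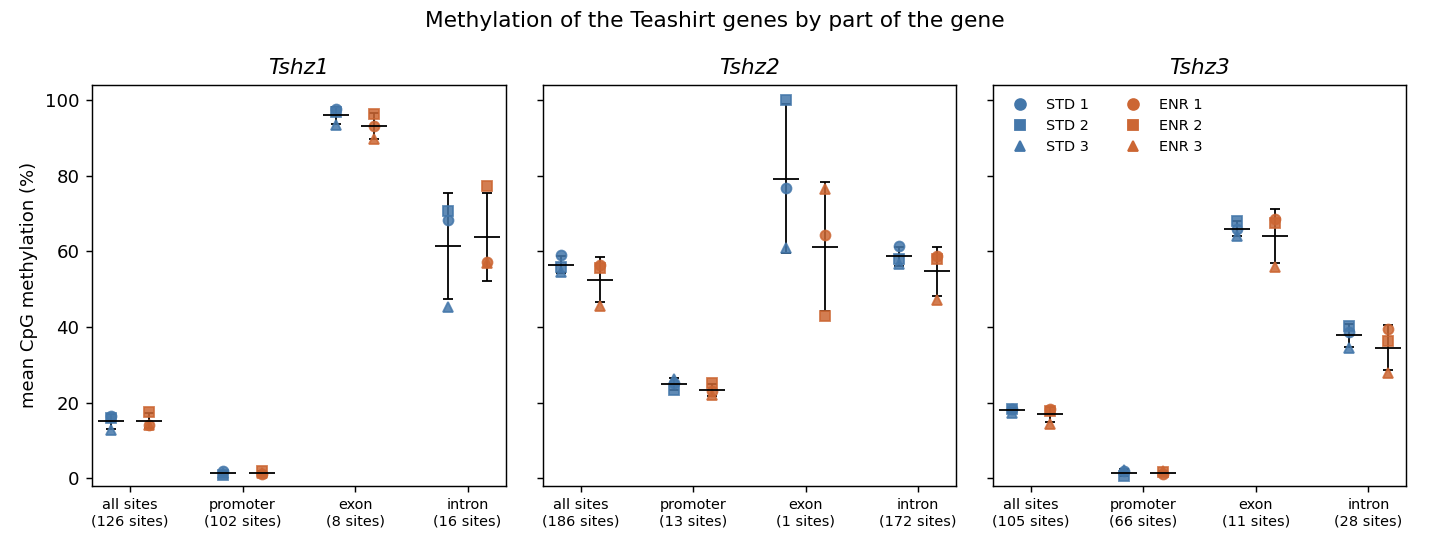
Mean CpG methylation (%) of each Teashirt gene, over all its sites and by part of the gene. Each symbol is 1 mouse (blue STD, orange ENR, shape for the replicate number), and black bars are the mean ± SD of 3 mice. Promoter sites of Tshz1 and Tshz3 lie near 0%, Tshz2 stands above 45% in every library, and the groups overlap in every part.

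Within introns the level could change over short distances. Of the 23 Tshz2 blocks with at least 3 sites, the ones at its starts included, 2 averaged under 10%, 4 over 90% and 17 lay between. The highest, at 393.5 kb from the first start, read 95.4%, 100% and 100% in STD and 100%, 97.5% and 100% in ENR. Less than 3 kb further on, a block of 4 sites read 0%, 13.3% and 7.69% in STD and 8.93%, 0% and 3.85% in ENR. Both blocks kept their level in all 6 libraries.

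A second low stretch of the Tshz2 intron lay 90.8 kb from the first start. Its 14 sites at 11 CpGs read 20.2%, 19.7% and 17.8% in STD and 20.6%, 19.5% and 22.8% in ENR. Within 1 kb near 366 kb, 3 further blocks with 1 or 2 sites each averaged 5.56%, 11.3% and 3.81%. None of the 5 sites in these 3 blocks was island-like. A single site in the same 1 kb, 366.5 kb from the first start, was not low, averaging 50.5% with libraries from 11.4% to 100%. These low intronic blocks were picked after their values were seen and are given as a description.

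Tshz3 held low intronic blocks too. A block of 4 sites at 38.4 kb from its start read 11.6%, 33.7% and 5.17% in STD and 18.4%, 6.82% and 0% in ENR. A block of 3 sites at 43.4 kb read 30.7%, 3.10% and 15.8% in STD and 24.7%, 33.3% and 16.8% in ENR. Both groups spread widely at these blocks and overlapped.

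**Figure D2:**
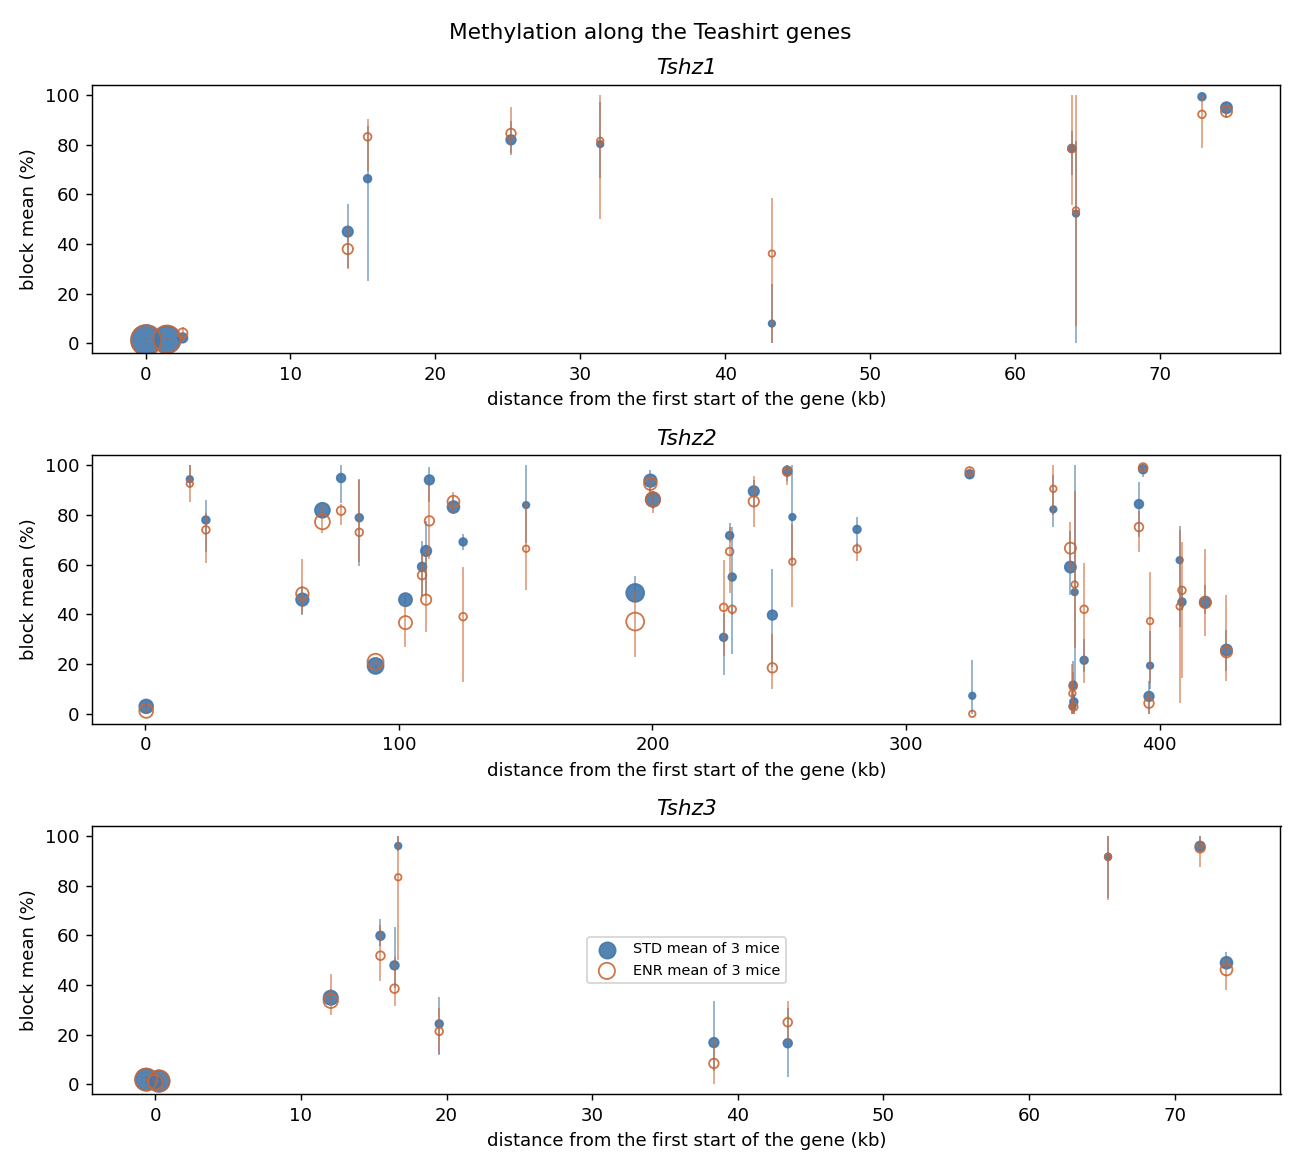
Block means (%) along Tshz1, Tshz2 and Tshz3 against the distance from the first start of each gene in kb. Filled blue circles are the mean of 3 STD mice, open orange circles the mean of 3 ENR mice, lines span the lowest to the highest mouse, and larger circles hold more sites. Low blocks sit at the starts of all 3 genes and recur inside the Tshz2 and Tshz3 introns, and the exonic blocks at the far end of Tshz1 lie above 90% on average.

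None of the 3 gene means passed the test between ENR and STD. The Tshz2 mean was 56.4% ± 2.26 in STD and 52.5% ± 6.06 in ENR (SD of 3 mice each), a difference of -3.89 percentage points (exact permutation p = 0.5, and adjusted p = 1.0 in limma over all genes). Without ENR replicate 3 the difference was -0.395 points, and without replicate 3 in both groups -1.33. Tshz3 differed by -1.08 points (17.9% ± 0.644 and 16.9% ± 2.10, exact permutation p = 0.6), by 0.119 without ENR replicate 3 and by -0.250 without replicate 3 in both groups. Tshz1 differed by 0.209 points (15% ± 1.91 and 15.2% ± 2.04, exact permutation p = 1), by 0.839 without ENR replicate 3 and by -0.254 without replicate 3 in both groups.

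Tshz2 and Tshz3 were lower in ENR, as were 57.6% of all genes, and Tshz1 was higher, as were 42.3%. Without ENR replicate 3, 44.5% of all genes were lower. None of the 3 genes had groups without overlap, and over all 22955 genes with at least 3 sites 5.42% were separated with ENR lower and 3.04% with ENR higher. limma called 0 of 22934 genes at an adjusted p under 0.05 and gave an unadjusted p under 0.05 to 3.86% of them, to none of the Teashirt genes. Of genes with at least 50 sites, 59% were lower and 41% higher in ENR. A decrease of more than that of Tshz2 was seen in 55 of those 6845 genes, which is 0.804%. Without ENR replicate 3 the Tshz2 difference of -0.395 points was exceeded in this direction by 1518 of the 6845 genes, or 22.2%.

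Intermediate sites carried most of the Tshz2 difference. At its 81 sites with an overall mean of 20% to 80%, the libraries read 59.8%, 53.9% and 51.4% in STD and 55.4%, 53.0% and 36.6% in ENR. The group difference there was -6.72 points, -0.841 without ENR replicate 3 and -2.65 without replicate 3 in both groups. For comparison, the 129574 such sites outside the Teashirt genes averaged 52.3%, 51.7% and 43.6% in STD and 51.9%, 50.9% and 37.6% in ENR. ENR replicate 3 was the only ENR library below all 3 STD libraries at the 81 Tshz2 sites.

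At single sites limma called 0 of the 321 Teashirt sites that varied, the smallest adjusted p being 0.852. An unadjusted p under 0.05 was given to 12 of the 321, against 2.68% of all 615152 sites tested. Of these 12 sites, 11 were in Tshz2 and 1 in Tshz1. In Tshz2, 7 of the 11 (63.6%) were lower in ENR, close to the 61.2% among all sites with such a p.

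By size, 15 Teashirt sites differed by more than 25 percentage points, the limit used in the study, with 12 lower and 3 higher in ENR. Without ENR replicate 3 the split was 11 lower and 10 higher. All 11 such sites of Tshz2 were lower in ENR and intronic, and they lay in only 5 blocks. Of all sites, 1.23% were lower and 0.706% higher by this size, and among sites with an overall mean of 20% to 80% these shares were 7.09% and 3.94%. At 8 of the 11 Tshz2 sites ENR replicate 3 was the lowest library, and 5 of the 11 kept a difference over 25 points without it.

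The groups did not overlap at 19 of the 417 Teashirt sites, 12 with ENR lower and 7 with ENR higher. Over all 890041 sites of the data, 2.34% were separated with ENR lower and 1.65% with ENR higher. The clearest of the lower Tshz2 sites, at position 169735584 in an intron, read 100%, 100% and 94.1% in STD and 61.1%, 75% and 71.4% in ENR. Its difference of -28.9 ± 6.11 points (SE) had an unadjusted limma p of 0.0016 and an adjusted p of 0.852. All 3 ENR mice lay well below the lowest STD mouse there.

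Differences in the other direction were found as well. At position 169754520 of Tshz2, STD read 76.7%, 72.2% and 83.0%, and ENR read 100% in all 3 mice, a difference of 22.7 ± 4.88 points (limma adjusted p = 0.852). At position 169833446, STD read 72.0%, 83.8% and 68.2% and ENR 97.6%, 90.3% and 100%. At position 169724150, in the low stretch at 90.8 kb, STD read 0%, 4.69% and 0% and ENR 15.3%, 15.7% and 11.3%. ENR was thus higher at single sites of the same introns in which it was lower elsewhere.

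In Tshz3, position 36714578 read 17.8%, 51.5% and 18.4% in STD and 4.17%, 6.67% and 8% in ENR. Position 36736547 of Tshz3 read 22.2%, 34.6% and 20.7% in STD and 17.9%, 0% and 0% in ENR. Position 36741604 of Tshz3 went the other way, with 7.32%, 0% and 14.9% in STD and 25%, 50% and 25% in ENR. In Tshz1 the sites without overlap named by the same rule were within 6 points of 0% difference, at the promoter. Position 84087826 read 8.16%, 2.56% and 5.83% in STD and 0% in all ENR mice, and position 84088116 read 0%, 3.70% and 0% in STD and 4%, 7.69% and 6.67% in ENR. The adjusted p in limma was 0.852 for each of these sites.

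Averaging neighbouring sites gave a similar picture. Of 43 tiles of 1 kb with at least 3 sites, 27 were lower and 16 higher in ENR, and 20 and 23 without ENR replicate 3. limma called 0 with adjusted p = 1, and 1 of the 43 had an unadjusted p under 0.05, against 3.98% of all tiles. In 2 tiles, both of Tshz2, the groups did not overlap and ENR was lower, as in 5.29% of all tiles. Separation with ENR higher was seen in 0 of the 43, against 3.57% of all tiles. The tile of 3 sites printed above as the block at 77.2 kb read 100%, 84.7% and 100% in STD and 84.5%, 84.6% and 76.2% in ENR, a difference of -13.2 points. This was -10.4 without ENR replicate 3 and -7.83 without replicate 3 in both groups. The lowest STD mouse and the highest ENR mouse were less than 1 point apart there.

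The second such tile held 8 sites and differed by -10.3 points, and by -5.36 without ENR replicate 3. It took in all but 1 of the sites of the block 102.6 kb from the first Tshz2 start, which holds position 169735584. The 9 sites of this block read 47.7%, 44.1% and 46.1% in STD and 43.5%, 39.6% and 27.0% in ENR, a difference of -9.24 points that was -4.38 without ENR replicate 3 and -4.31 without replicate 3 in both groups. A block of 2 sites at 125.3 kb was also separated, with 65.9%, 69.3% and 72.3% in STD and 59.2%, 45.4% and 12.7% in ENR, a difference of -30.1 points that was -16.9 without ENR replicate 3 and -15.4 without replicate 3 in both groups. At all 3 blocks ENR replicate 3 was the lowest mouse.

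Among blocks with at least 3 sites, the pair with the largest differences had overlapping groups. The Tshz2 block at 247 kb read 42.2%, 18.9% and 58.2% in STD and 13.3%, 32.3% and 9.95% in ENR, a difference of -21.2 points (exact permutation p = 0.2). It was -17.0 without ENR replicate 3 and -7.75 without replicate 3 in both groups. The block at 111 kb read 77.7%, 47.3% and 71.6% in STD and 38.3%, 66.5% and 33.0% in ENR, a difference of -19.6 points (exact permutation p = 0.2). That difference was -13.1 without ENR replicate 3 and -10.1 without replicate 3 in both groups. In each of them the highest ENR mouse lay above the lowest STD mouse. Among Tshz2 blocks of this size the largest difference upwards was 7.61 points, in a block of 6 sites at 364.8 kb (59.1% ± 13.2 and 66.7% ± 9.92). There it was 12.3 without ENR replicate 3 and 6.66 without replicate 3 in both groups. Smaller blocks differed by up to 28.2 points upwards, at a single Tshz1 site where the groups overlapped. This site differed by 46.2 points without ENR replicate 3 and by 42.3 without replicate 3 in both groups.

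Of the 23 Tshz2 blocks with at least 3 sites, 16 were lower and 7 higher in ENR. Without ENR replicate 3, 10 were lower and 13 higher. ENR replicate 3 was the lowest library in 15 of the 23. In Tshz3, 7 of 10 such blocks were lower in ENR, and 5 of 10 without ENR replicate 3. In Tshz1, 3 of 6 were lower either way.

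**Figure D3:**
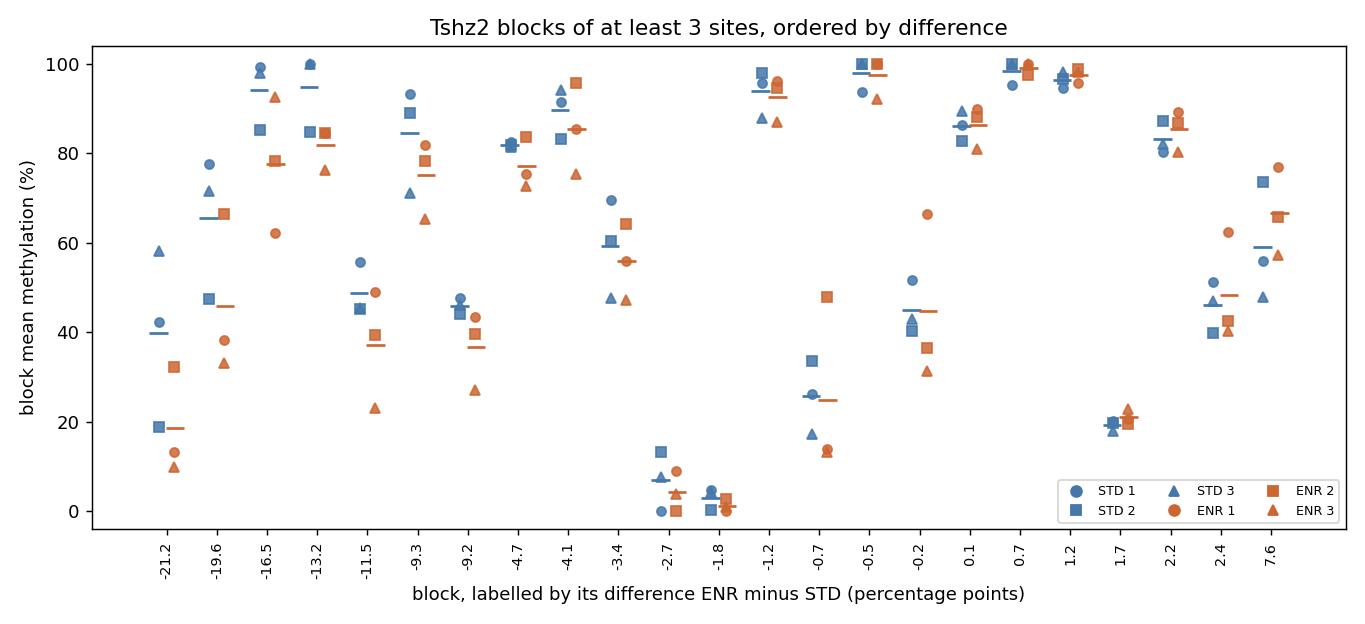
Mean methylation (%) of the 23 Tshz2 blocks with at least 3 sites, ordered by the difference of group means (ENR minus STD, percentage points, below each block). Each symbol is 1 mouse (blue STD, orange ENR, shape for the replicate number) and the short lines are group means. Differences run from -21.2 to 7.6 points, and the ENR replicate 3 triangle is the lowest symbol in 15 blocks.

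The intronic Tshz2 block that the study amplified was matched from the primer sequences. The bisulfite amplicon spans chr2:169826099-169826630 and holds 18 sites. The block also lies in the antisense noncoding gene Gm26883, which overlaps the first part of Tshz2. The study used this assay on other mice.

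The 18 sites averaged 55.6%, 45.1% and 45.3% in STD and 49.1%, 39.3% and 23.0% in ENR. The difference was -11.5 points (48.7% ± 6.04 and 37.1% ± 13.2, exact permutation p = 0.3), -4.47 without ENR replicate 3 and -6.16 without replicate 3 in both groups. The groups overlapped. Of the 18 sites, 14 were lower in ENR, 3 higher and 1 equal, and 12, 5 and 1 without ENR replicate 3.

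The block was not uniformly methylated. A gap of 70 bp without covered sites divided it into 9 sites averaging 64.8% and 9 sites averaging 21% over the 6 libraries. The upstream stretch read 81.4%, 60.6% and 77.6% in STD and 66.6%, 72.6% and 29.8% in ENR. The downstream stretch read 29.9%, 29.5% and 13.0% in STD and 31.5%, 6.06% and 16.1% in ENR. The upstream stretch exceeded the other in 6 of 6 libraries, by 13.7 to 66.6 points.

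ENR replicate 3 was the lowest library upstream of the gap and ENR replicate 2 downstream of it. The group difference was -16.8 points upstream and -3.58 without ENR replicate 3, and downstream it was -6.24 and -5.35. Without replicate 3 in both groups it was -1.40 upstream and -10.9 downstream. The first site after the gap, at position 169826385, read 0% in all 6 libraries.

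The last covered site of the block, at position 169826518, was the only one of the 18 without overlap of the groups. It read 35.8%, 34.3% and 23.3% in STD and 13.3%, 2.94% and 0% in ENR (limma adjusted p = 0.852). The largest single difference, -51.0 points, was at position 169826307, where STD read 76.9%, 47.8% and 100% and ENR 22.7%, 48.8% and 0%. The highest ENR mouse lay above the lowest STD mouse at that site, and the difference was -39.1 points without ENR replicate 3.

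**Figure D4:**
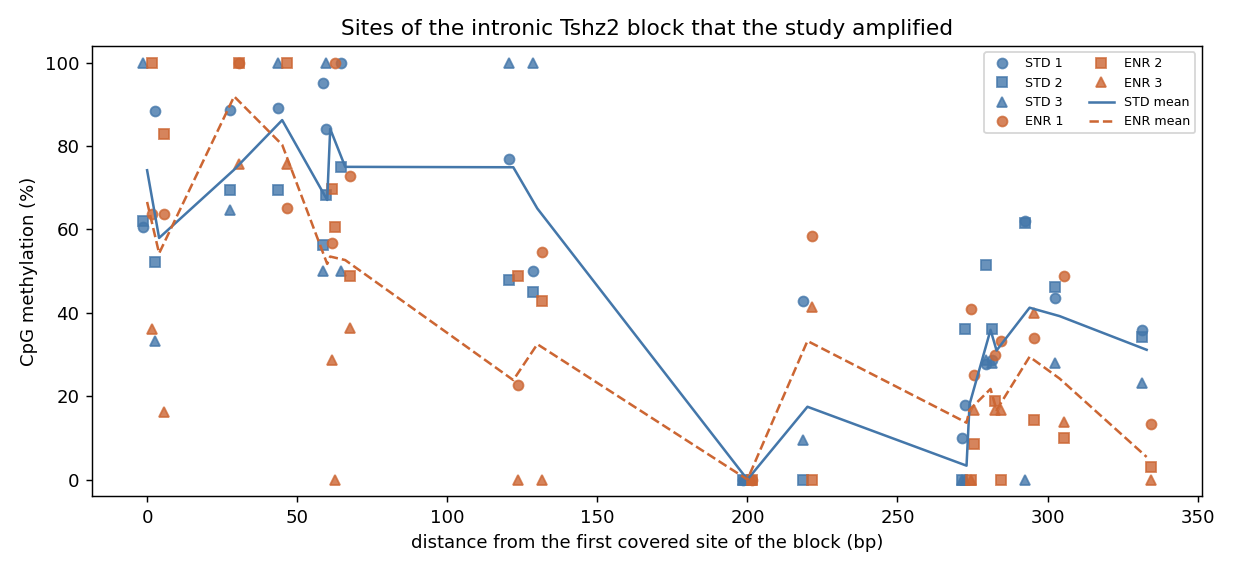
CpG methylation (%) at the 18 sites of the amplified Tshz2 block against the distance from its first covered site in bp. Each symbol is 1 mouse (blue STD, orange ENR, shape for the replicate number), the solid line is the STD mean and the dashed line the ENR mean. Levels are high before the 70 bp gap and low after it, and single libraries range from 0% to 100% at several sites before it.

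The spread between mice at single sites was large. The median SD over the 6 libraries at sites with an overall mean of 20% to 80% was 19.95 points in Tshz2, 15.7 in Tshz3 and 23.5 in Tshz1, and 17.9 over all 129689 such sites. The 2 strands of a CpG, read from different molecules, also differed. At the 15 Tshz2 CpGs with both strands covered, the strands of 1 library differed by 16.3 points on average (90 pairs), and by 55.7 points at most. At the 5 Tshz3 CpGs of this kind with a mean over 10% the average was 17.8 points.

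Related genes were described from a list of 17. It held 11 other homeobox genes, most of them encoding proteins that also carry zinc fingers, and 6 genes whose proteins have been described as partners of Teashirt proteins. All 17 had covered sites, and limma called 0 with 0 at an unadjusted p under 0.05. Of the 17, 10 were lower and 7 higher in ENR, beside the 57.6% of all genes that were lower. Without ENR replicate 3, 6 were lower and 11 higher, beside 44.5% of all genes lower. Their median difference was -0.179 points and that of all genes -0.192, and without ENR replicate 3 these were 0.515 and 0.145. Zhx1 alone had groups without overlap, with 4.57%, 3.99% and 4.33% in STD and 3.94%, 3.85% and 3.75% in ENR. Separation with ENR lower was found in 5.42% of all genes.

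Mean levels of the 17 genes ran from 2.18% in Homez to 39.6% in Zfhx3, all below the 54.5% of Tshz2. Zfhx3, a large gene with 558 covered sites, averaged 41.1%, 41.4% and 38.8% in STD and 40.9%, 40.5% and 34.6% in ENR. Its 3 ENR libraries thus had the same order as in Tshz2, with ENR replicate 3 lowest. Ctbp1 and Ctbp2, which encode the C-terminal binding proteins, differed by -0.121 and 0.129 points, and by 2.06 and 0.650 without ENR replicate 3.

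The genes whose means followed the members most closely over the 6 libraries were found among 14333 genes with at least 20 sites. For Tshz2 these were Ubap2 (Pearson r = 0.995), Golga7 (0.994) and Draxin (0.992). For Tshz3 these were Iqcm (1.0), Grip1 (0.998) and Myo16 (0.997), and for Tshz1 Dlk2 (0.993), Gm13135 (0.989) and Chchd4 (0.987). With 6 libraries that share their overall level, the median r of all these genes was 0.377 with Tshz2, 0.396 with Tshz3 and 0.251 with Tshz1. The values are a description of these 6 libraries.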

How the data were processed

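RRBS was performed on dentate gyrus DNA of 6 mice. Per the labels, the authors processed reads with Trim Galore 0.4.0, cutadapt 1.8.1, Bismark 0.16.1 and methylKit 1.5.2 (submitters' processing notes), aligned them to mm10, and kept cytosines with at least 10 reads while discarding the most deeply covered ones. The deposited values are the percent of methylated reads per cytosine and library. Read numbers are not part of these values, so the study's test of reads was not run.

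Each strand was a site, and 20 sites that are no CpG in the reference were kept. Promoter, exon and intron followed GENCODE M21, promoters being within 1 kb of a start of the member. Sites, 1 kb tiles and gene means (at least 3 sites) were tested over the whole table with limma 3.58.1 in R 4.3.3 (eBayes with a variance trend) and Benjamini-Hochberg adjustment, after tests on simulated data. A site or tile call needed an adjusted p under 0.05 and a difference over 25 points. For single values, all 20 regroupings of the libraries were used in a two-sided exact permutation test. The members, lists and rules were chosen with earlier results of these data known.

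Named blocks had the most sites, lay at a start, had the highest or lowest mean or were among the 2 largest differences in each direction. Named sites were those without overlap of the groups that had the 3 smallest p-values in limma, separately for higher and lower in ENR, at most 1 per block. Blocks and sites outside these rules were chosen after their values were seen. Sequences were read from the GRCm38 reference, and none was printed for Tshz1. One assay of the study at a Tshz2 locus is not reported here. Alternatives covered scale, normalization, strand averaging, limits, left-out libraries and the replicate number as a block.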

Additional observations from a re-analysis of the deposited data

How the results depend on the processing

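Values are ENR minus STD in percentage points. Tshz2 stayed below 0 in 17 of 17 alternatives, from -7.41 to -0.395, and from -5.80 to -0.395 with 1 library left out. The arcsine square-root scale, the replicate block and the fit without a variance trend are counted among these alternatives. By construction they change the test and not the difference of group means, in each of the 3 genes. Tshz1, 0.209, changed sign without STD replicate 3 (-0.885), without ENR replicate 2 (-0.966) and without replicate 3 in both groups (-0.254), with a range of -0.966 to 0.883 when 1 library was left out. It was 2.84 when sites were first averaged by tile and 2.59 with libraries shifted to a common level at sites of 20% to 80%. This shift moved all sites of a library by the same amount, those at 0% included. By construction it raised the difference equally in each of the 3 genes, so the shifted values carry nothing specific to a gene. Tshz3, -1.08, changed sign without ENR replicate 3 (0.119) and at sites within 1 kb of a start (0.016). Its range was -1.84 to 0.119 when 1 library was left out. It was -2.36 when first averaged by tile and -2.94 at sites over 1 kb from every start. With the same shift it was 1.30, a change of sign that the added amount alone produced. The median over sites could not be compared in Tshz1 and Tshz3, where it was 0 in every library. The 15 sites over 25 points became 37 and 1 when the limit was 20 or 40, 30 with group medians, 23 without replicate 3 in both groups, and 21 to 32 with 1 library left out. Their split of 12 lower and 3 higher became 14 and 10 without STD replicate 1, 20 and 8 without STD replicate 2, 13 and 10 without replicate 3 in both groups, and 11 and 10 without ENR replicate 3. The amplified Tshz2 block ranged from -17.5 to -4.47 with 1 library left out, the latter without ENR replicate 3, an alternative chosen after seeing the data. Calls stayed at 0 for sites (adjusted p of at least 0.781 in limma, 7 to 17 sites at an unadjusted p under 0.05) and for tiles (at least 0.920, 0 to 3 tiles). Apart from those set by construction, the causes of these changes were not tested.

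The replicate numbers were not treated as pairs. Deviations from the group means correlated at 0.060, 0.035 and 0.135 for numbers 1, 2 and 3, and STD replicate 2 correlated best with ENR replicate 1 (0.045). With the replicate number as a block, 0 sites and 0 tiles were called. The gene differences of 0.209, -3.89 and -1.08 cannot change with such a block. Unknown read depth limits every single site.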
